A study of Mus musculus with 4 samples.

Results

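The 10 genes described here are the transcription factors that set up and maintain skeletal muscle, together with the muscle hormone myostatin: Myod1, Myog, Myf5, Myf6, Pax3, Pax7, Mef2a, Mef2c, Mef2d and Mstn. They were taken by name from a list of myogenic regulators and read in the table of deposited values from all probe sets assigned to 1 gene symbol. All 10 of them, among 19938 genes on the array, were found, in 11 of 35557 probe sets, Mef2d having 2. The whole back skin came from C57Bl6 mice of postnatal day 22, whose hair follicles rest (telogen), and was taken 22 h after lights on in mice kept in alternating light and dark and fed chow freely. In the 2 knockout mice both copies of Bmal1 (gene symbol Arntl) were deleted in the germline, so that any tissue of the body may have been affected. The 2 heterozygous mice had 1 mutant and 1 wild-type Bmal1 allele, and no wild-type mouse was analysed here. Each mouse, described as a littermate, gave 1 Affymetrix whole-transcript array, and the number of arrays limits the precision of all values.

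Skeletal muscle is specified by 4 related basic helix-loop-helix (bHLH) activators. MYOD and MYF5 commit precursors to the muscle fate, myogenin (Myog) drives terminal differentiation, and MYF6, also called MRF4, is the member most abundant in adult fibres. They bind E-boxes, short DNA elements of the form CANNTG, as heterodimers with E proteins, and they act together with MEF2 factors, which bind A/T-rich sites in muscle genes. PAX3 marks embryonic muscle precursors and melanoblasts, PAX7 marks satellite cells, the stem cells of muscle, and myostatin is a secreted TGF-beta family protein that restrains muscle mass. Mouse back skin has its own sheet of striated muscle, the panniculus carnosus, under the dermis. BMAL1 and CLOCK also bind E-boxes, most strongly CACGTG, and Myod1 is a known target of the pair in mouse muscle. The comparison asked whether these regulators differ in skin without BMAL1.

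Promoter sequences from RefSeq's GRCm38.p6 table are given for Mstn and Mef2c, tested members whose knockout arrays both lay above the heterozygous range, and for Myog, a bHLH member whose arrays overlapped. Each run is the 250 bases before the annotated start on the plus strand, and capitals mark CANNTG. The Mstn window is chr1:53061390-53061639, the Mef2c window, the first of 3 annotated starts, is chr13:83503784-83504033, and the Myog window is chr1:134289754-134290003.
Mstn: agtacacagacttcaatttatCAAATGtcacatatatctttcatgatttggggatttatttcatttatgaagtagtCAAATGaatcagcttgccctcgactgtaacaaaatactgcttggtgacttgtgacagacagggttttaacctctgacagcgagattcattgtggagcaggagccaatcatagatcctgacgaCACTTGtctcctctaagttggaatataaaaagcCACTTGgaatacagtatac
Mef2c: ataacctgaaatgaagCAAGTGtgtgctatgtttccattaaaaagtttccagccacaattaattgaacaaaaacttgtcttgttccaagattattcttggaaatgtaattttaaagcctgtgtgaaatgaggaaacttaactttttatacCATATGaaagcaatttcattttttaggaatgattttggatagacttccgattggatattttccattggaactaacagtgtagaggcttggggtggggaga
Myog: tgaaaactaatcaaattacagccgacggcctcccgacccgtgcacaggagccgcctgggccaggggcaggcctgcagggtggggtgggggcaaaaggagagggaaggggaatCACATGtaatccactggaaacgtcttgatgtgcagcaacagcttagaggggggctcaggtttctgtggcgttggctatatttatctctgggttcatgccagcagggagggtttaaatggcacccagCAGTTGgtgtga
CANNTG reads the same on both strands, and it occurred 4 times before Mstn, 2 times before this Mef2c start and 2 times before Myog. Before the second and the third Mef2c start it occurred 0 times and 1 time. At least 1 match lies in 66.2% of all 32851 windows of this length, so its presence is common. The table held 9 windows of 7 members, those of Mstn, Mef2c, Myog, Myf5, Mef2a, Mef2d and Pax7. CACGTG, which is contained in CANNTG, was in none of the 9 windows and in 6.02% of all windows. CTANNNNTAG, the outer letters of a MEF2 site with any 4 bases between, which also reads the same on both strands, had 1 match among the 9 windows, before Myf5, whose central bases are not all A or T, and was in 3.20% of all windows. A letter match is not a bound site, and windows farther from the start were not searched. MEF2 sites with other outer letters were not searched either, so a window without a match may still hold one.

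The targeted gene was lower in the knockout arrays. Arntl read 8.29 and 8.16 in the knockout arrays on the log2 signal scale, against 8.90 and 9.08 in the heterozygous arrays. The log2 difference, knockout minus heterozygous as everywhere below, was -0.76 (SE 0.12, n = 2 per genotype), with an adjusted p of 0.0150 in limma over all tested probe sets. The remaining signal can come from probes outside the deleted part. Without knockout array 1 the adjusted p was 0.064. Over the 16341 tested probe sets, 323 (1.98%) passed an adjusted p of 0.05, but 37 without knockout array 1 and 958 without heterozygous array 1. At an unadjusted p under 0.05 there were 2933 (17.9%), or 1648 without knockout array 1. Of the 2933, 64.4% were higher in the knockout arrays. The share higher among probe sets under that p was 79.3% after median centring and 50.02% without heterozygous array 2, each over its own set. When probe sets assigned to several genes were also tested, 0 of 17557 passed in limma (2713 at an unadjusted p under 0.05), and Arntl had an adjusted p of 0.102, so every adjusted call below rests on testing probe sets of 1 gene only.

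Mstn and Myf6 rose in the knockout arrays, Mef2c was higher without passing the threshold, and the log2 differences of the other 6 tested regulators lay between -0.07 and 0.03. Of the 9 tested members 2 passed the adjusted threshold, where 1.98% of all tested probe sets did. In 3 of the 9 both knockout arrays lay outside the heterozygous range, where 49.8% of all tested probe sets did. All 3 were above it, against 27.8% of all tested probe sets, and 0 were below, against 22.1%. The median log2 difference of the 9 was 0.03, close to the 0.02 over all tested probe sets. Myf5, with a mean log2 signal of 6.30, lay under the filter on low signal, set at a mean of 6.67, and was not tested.

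**Figure D1:**
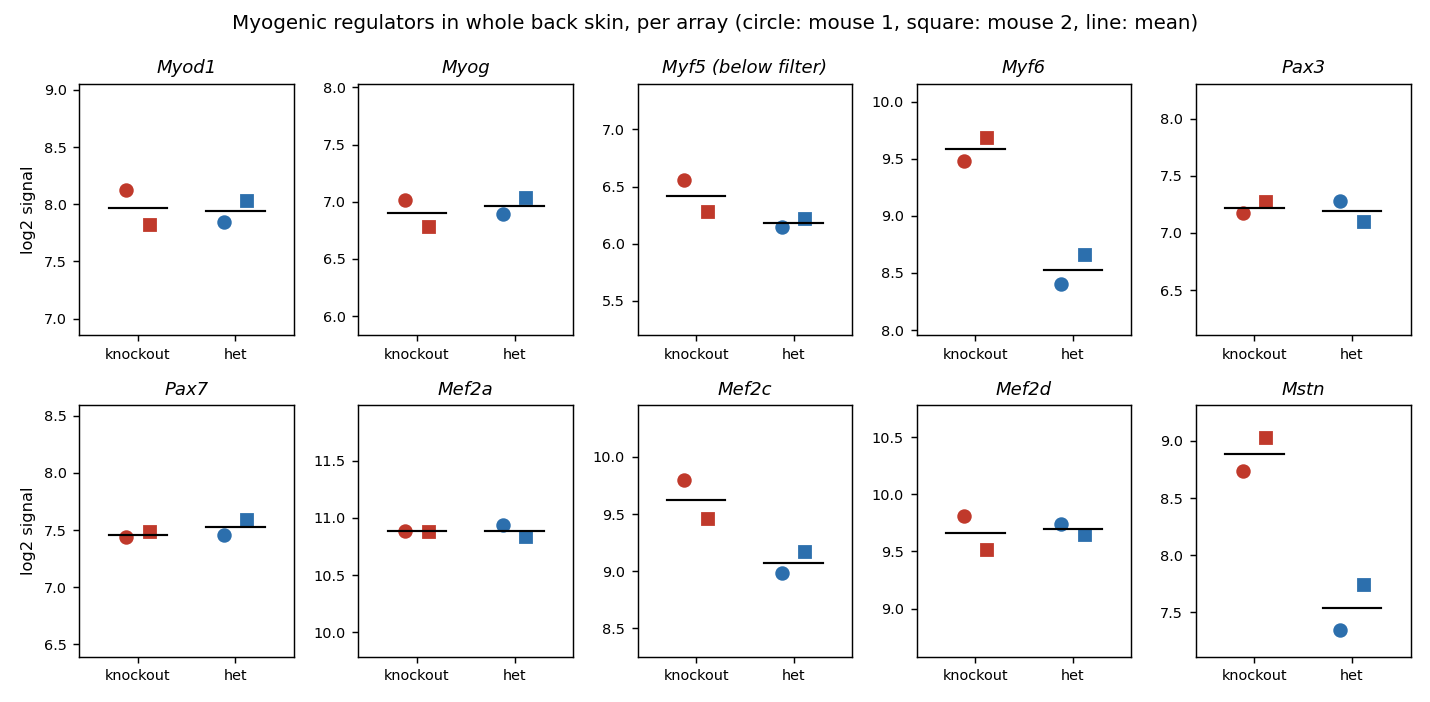
Log2 signal of the 10 regulators on each array after quantile normalization, with knockout (red) left of heterozygous (blue, "het"). Circles are mouse 1 and squares mouse 2 of each genotype, black lines are means of the 2 arrays, and all panels span the same number of log2 units. The knockout points of Mstn, Myf6 and Mef2c lie above both heterozygous points, those of Myf5 do so by little, and for Myod1, Myog, Pax3, Pax7, Mef2a and Mef2d the genotypes overlap.

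Among the bHLH factors, Myf6 rose, the arrays of Myod1 and Myog overlapped, and Myf5 was too dim to test. Myf6 (probe set 10372230) read 9.48 and 9.68 in the knockout arrays, against 8.41 and 8.65 in the heterozygous arrays. Both knockout arrays stood well above both heterozygous ones, by more than the spread within either genotype. The log2 difference was 1.05 (SE 0.13, 95% interval 0.76 to 1.34, n = 2 per genotype), a 2.08-fold higher signal, with an adjusted p of 0.0078 in limma. Only 0.306% of tested probe sets had a difference at least as high. The adjusted p was 0.094 when probe sets of several genes were tested too.

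Myf5, the next protein-coding gene to Myf6 on chromosome 10, read 6.56 and 6.28 in the knockout arrays, against 6.15 and 6.22 in the heterozygous arrays. Both knockout arrays were above both heterozygous ones, knockout array 2 only narrowly. The log2 difference was 0.23, in signals below the filter. The difference between the 2 neighbours was not tested.

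Myod1 (probe set 10553256), the member known as a CLOCK and BMAL1 target in muscle, read 8.13 and 7.82 in the knockout arrays, against 7.85 and 8.03 in the heterozygous arrays. The highest and the lowest of the 4 values both came from knockout mice, so the genotypes overlapped fully. The log2 difference was 0.03 (SE 0.14, 95% interval -0.28 to 0.34), with an adjusted p of 0.93 in limma. The interval leaves room for a change of either sign smaller than that of Myf6, and the sign turned when knockout array 1 (-0.12) or heterozygous array 1 (-0.060) was left out. All 4 arrays came from 22 h after lights on, so Myod1 at other hours was not measured.

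Myog, the differentiation factor, read 7.02 and 6.78 in the knockout arrays, against 6.90 and 7.04 in the heterozygous arrays. These values interleave, and the log2 difference was -0.07 (95% interval -0.41 to 0.28, limma adjusted p = 0.86). Without knockout array 2 or heterozygous array 2 the sign turned (0.052 and 0.0043).

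The Pax genes showed no difference beyond the spread between arrays. Pax7, the satellite cell factor, read 7.43 and 7.48 in the knockout arrays, against 7.46 and 7.59 in the heterozygous arrays. Its log2 difference of -0.06 (95% interval -0.34 to 0.21, limma adjusted p = 0.83) came mostly from heterozygous array 2, without which it was 1.2e-04. Pax3 read 7.18 and 7.27 in the knockout arrays, against 7.28 and 7.10 in the heterozygous arrays. One heterozygous mouse was the highest and the other the lowest, and the log2 difference was 0.03 (95% interval -0.28 to 0.34, limma adjusted p = 0.93). It was negative without knockout array 2 (-0.014), without heterozygous array 2 (-0.063), with the values as deposited (-0.052) and after median centring (-0.016). Skin also has melanocytes, in whose lineage PAX3 acts. Of 7 tested melanocyte markers 3 were higher and 4 lower, with a median log2 difference of -0.0046. In limma 0 passed the adjusted threshold. Lower at an unadjusted p under 0.05 was 1, Mlana (-0.46), against 6.38% of all tested probe sets. The summed linear signal of all 8 listed melanocyte markers, tested or not, was 2264 and 2406 in the knockout arrays, against 2291 and 2413 in the heterozygous arrays.

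The 3 MEF2 genes did not move together. Mef2c (probe set 10406434) read 9.80 and 9.45 in the knockout arrays, against 8.98 and 9.17 in the heterozygous arrays. The knockout mice were again both above the heterozygous range, with a gap narrower than that of Myf6. Its log2 difference was 0.55 (SE 0.14, 95% interval 0.24 to 0.86), 1.46-fold, with an adjusted p of 0.079 in limma, so it did not pass. It did pass with the values as deposited (adjusted p = 0.048), after median centring (0.018), with the label number as a replicate block (0.028) and without knockout array 2 (0.035). Without knockout array 1 the difference was 0.38 (adjusted p = 0.45) and without knockout array 2 it was 0.72, so it depended most on the knockout pair.

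Mef2a, widely expressed outside muscle too, read 10.88 and 10.88 in the knockout arrays, against 10.94 and 10.84 in the heterozygous arrays. The knockout pair fell between the heterozygous pair, and the log2 difference was -0.0037 (95% interval -0.25 to 0.25, limma adjusted p = 0.99). Mef2d read 9.81 and 9.51 in the knockout arrays, against 9.74 and 9.65 in the heterozygous arrays, and again the genotypes overlapped. The log2 difference of this probe set was -0.03 (95% interval -0.32 to 0.25, limma adjusted p = 0.92), and that of the second Mef2d probe set was 0.0095 (95% interval -0.25 to 0.27). The signs of Mef2a and Mef2d turned with the values as deposited (0.10 and 0.065) and after median centring (0.14 and 0.10).

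Mef2c is also expressed in endothelial cells, smooth muscle and myeloid cells, and the markers of these cells were read in the same arrays. Of 8 endothelial markers 4 were higher and 4 lower, with a summed linear signal of 4525 and 3840 in the knockout arrays, against 4147 and 4139 in the heterozygous arrays. Smooth muscle markers were lower in 5 of 6, with sums of 5092 and 4314 in the knockout arrays, against 6049 and 5172 in the heterozygous arrays. Macrophage markers were lower in 7 of 8, with sums of 5696 and 6278 in the knockout arrays, against 7505 and 6201 in the heterozygous arrays. The median log2 differences of the lists were 0.03 (endothelial), -0.23 (smooth muscle) and -0.14 (macrophage), and 0 of the 22 markers passed the adjusted threshold in limma, with 3 lower ones, Cnn1, Myh11 and Cd68, at an unadjusted p under 0.05 (6.38% of the tested probe sets were lower at that p). Their part in the Mef2c difference was not tested.

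Mstn (probe set 10346250) showed the highest value among the members' differences. It read 8.74 and 9.03 in the knockout arrays, against 7.34 and 7.74 in the heterozygous arrays. The gap between the genotypes was wider than the spread within either of them. The log2 difference was 1.34 (SE 0.16, 95% interval 1.00 to 1.69, n = 2 per genotype), 2.54-fold, with an adjusted p of 0.0065 in limma. Only 14 of the 16341 tested probe sets, Mstn among them, had a difference at least as high. With probe sets of several genes tested too, the adjusted p was 0.094. With 1 array left out the Mstn difference ran between 1.16 and 1.58 and that of Myf6 between 0.93 and 1.19, and both passed in each of these 4 fits.

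**Figure D2:**
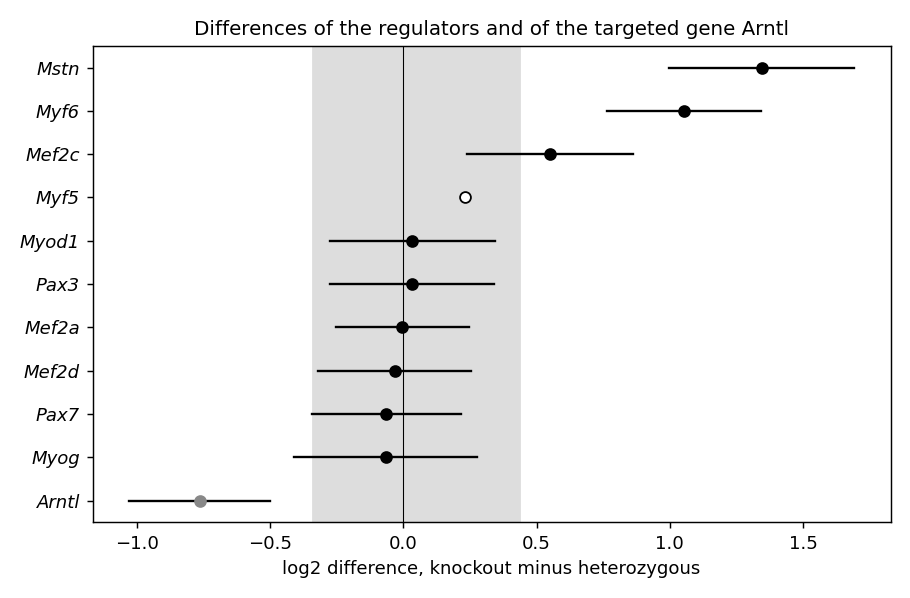
Log2 difference, knockout minus heterozygous, of the regulators and, in grey, of the targeted gene Arntl. Bars are limma's 95% intervals, the open point (Myf5) was below the filter, and the shaded band holds the 5th to 95th percentile of all tested probe sets (-0.34 to 0.44). Mstn (1.34), Myf6 (1.05) and Mef2c (0.55) lie to the right of the band, and the intervals of the other tested regulators include 0.

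Over the 4 arrays the Mstn and Myf6 profiles were alike. After centring each on its own mean, they differed by a root mean square of 0.16 log2 units, against 0.46 between Mstn and Mef2c and 0.32 between Myf6 and Mef2c. The closest pair among the 10 was Pax3 and Mef2a at 0.05, both nearly flat. The 5 probe sets of other genes closest to Myod1 were those of Khnyn, Etfbkmt, Fam78b, Hmcn1 and Prrc2b, at 0.01 to 0.02 log2 units, all over 4 arrays. Like Myod1, they were highest in knockout array 1, which follows from choosing them by likeness over these arrays.

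Markers of skeletal muscle fibres moved with these results. Of 25 genes of mature muscle fibres 18 were higher and 7 lower, with a median log2 difference of 0.50, against 0.02 over all tested probe sets. In 17 both knockout arrays lay above both heterozygous arrays (68.0%, against 27.8% of all tested probe sets), and in 3 both lay below (against 22.1%). The adjusted threshold was passed by 6 of the 25, against 1.98% of all tested probe sets. At an unadjusted p under 0.05 in limma there were 16 higher, against 11.6%, and 3 lower, against 6.38%. The summed linear signal of the list was 103727 and 86537 in the knockout arrays, against 63987 and 68707 in the heterozygous arrays. The mean log2 signal of the list, in which dim genes weigh as much as bright ones, did not separate the genotypes, with 10.80 and 10.51 in the knockout arrays, against 10.03 and 10.51 in the heterozygous arrays. In whole skin, more muscle cells and more RNA per muscle cell cannot be told apart. Casq2, which encodes a calcium buffer of the sarcoplasmic reticulum, rose by 2.45, Actn2, a Z-disc alpha-actinin, by 1.32, Des, the muscle intermediate filament desmin, by 0.97 and Casq1, the fast-fibre calsequestrin, by 0.82. Without knockout array 1 Des (adjusted p = 0.088) and Casq1 (0.128) did not pass. The lowest difference was that of Myl2 (-1.16); this slow-fibre myosin light chain gene read 6.13 and 6.07 in the knockout arrays, against 6.32 and 8.19 in the heterozygous arrays, so heterozygous array 2 stood alone. The same array was also the higher heterozygous one for Myh7 (8.31 against 7.55 in heterozygous array 1), Tnnc1 (8.89 against 7.06) and Tnni1 (8.43 against 7.40). These 3 genes of the slow-fibre myosin and troponins had lower knockout means. Tnnt1, also a slow-fibre troponin gene, went the other way, with a log2 difference of 0.59. It read 8.54 and 8.28 in the knockout arrays, against 7.06 and 8.58 in the heterozygous arrays, so the genotypes overlapped.

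Set against the mean log2 signal of the 25 fibre genes on the same array, Mstn lay at -2.06 and -1.48 in the knockout arrays, against -2.69 and -2.77 in the heterozygous arrays. Its difference on this scale was still 0.96. Myf6 lay at -1.31 and -0.83 in the knockout arrays, against -1.62 and -1.86 in the heterozygous arrays, a difference of 0.67. Both genes therefore differed by more than the mean of the 25 fibre genes, a mean that did not separate the genotypes. Without this scaling, the log2 differences of the single fibre genes ran from -1.16 (Myl2) to 2.45 (Casq2). Those of Mstn (1.34) and Myf6 (1.05) lay inside that range. Against the fibre mean, Mef2c lay at -0.996 and -1.06 in the knockout arrays, against -1.05 and -1.34 in the heterozygous arrays, which is a difference of 0.17. The knockout means of the other 7 regulators were lower on this scale, with differences of -0.15 for Myf5 to -0.45 for Myog. The arrays of Myf5, Pax3 and Mef2a overlapped: Mef2a, for example, lay at 0.089 and 0.37 in the knockout arrays, against 0.91 and 0.33 in the heterozygous arrays. These ratios were chosen after the values were seen and show unequal change only. The part of muscle content in the rise of Mstn and Myf6 was not tested.

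**Figure D3:**
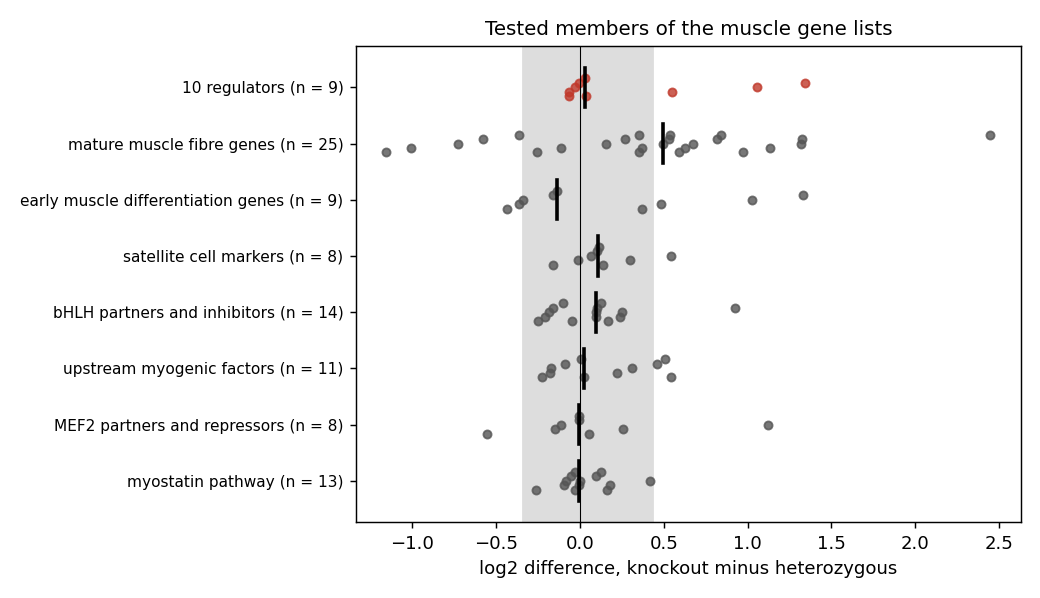
Log2 difference, knockout minus heterozygous, of each tested gene in the regulators (red) and in 7 lists of related genes (grey), 1 point per gene, with black bars at the medians. The shaded band holds the 5th to 95th percentile of all tested probe sets. The mature fibre list is centred to the right of 0 (median 0.50) with 7 genes to the left of 0, and the other lists have medians between -0.14 and 0.11.

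Genes switched on early in muscle differentiation or in immature fibres split in direction. Of 9 tested, 4 were higher and 5 lower, with a median of -0.14. At an unadjusted p under 0.05 in limma there were 4 higher, against 11.6% of all tested probe sets, and 1 lower, against 6.38%. The adjusted threshold was passed by 2, both higher, against 1.98% of all tested probe sets. Mybph, a myosin-binding protein, rose to 10.93 and 10.45 in the knockout arrays, against 9.27 and 9.45 in the heterozygous arrays, a log2 difference of 1.33 (SE 0.16, limma adjusted p = 0.0067). Chrna1, the alpha subunit of the muscle acetylcholine receptor, rose to 8.26 and 8.29 in the knockout arrays, against 7.19 and 7.31 in the heterozygous arrays, a difference of 1.03 (SE 0.12, limma adjusted p = 0.0065). Without knockout array 1 the adjusted p of Chrna1 was 0.052. Myl4, an embryonic and atrial myosin light chain, differed by 0.49 (adjusted p = 0.056) and passed in 6 alternatives, such as the values as deposited (0.028). Chrng, the fetal receptor subunit, read 7.05 and 6.85 in the knockout arrays, against 7.28 and 7.35 in the heterozygous arrays, and did not pass (-0.36, adjusted p = 0.21). Chrna1, found in fetal and adult receptors, and Chrng, found in the fetal form, thus had opposite signs, a difference that was not tested. The fusion genes Mymk (-0.16) and Mymx (-0.14) were lower without passing.

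Satellite cell markers gave a median of 0.11 over 8 tested genes, 6 of them higher. In limma 0 passed the adjusted threshold, and 2 higher ones, Itga7 and Cdh15, had an unadjusted p under 0.05. That direction and threshold held 11.6% of the tested probe sets. Itga7, the laminin-binding integrin of muscle, differed by 0.54 (SE 0.17, limma adjusted p = 0.13; it passed in 3 alternatives, such as median centring with 0.040), or 0.30 when heterozygous array 2 was left out and 0.81 when heterozygous array 1 was. Cdh15, M-cadherin, differed by 0.30 (adjusted p = 0.26), Fgfr4 by 0.14 and Spry1 by -0.16. Fgfr4 was at -0.020 without heterozygous array 2, and Spry1 at -0.068 without knockout array 2 and -0.25 without knockout array 1. As with Pax7, no tested marker of the list passed in either direction. Of the 10 markers listed, those below the filter were not tested. The part of other skin cells in these signals was not tested either.

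The partners and inhibitors of the bHLH factors were mostly close to 0. Of 14 tested, 8 were higher and 6 lower, with a median of 0.09. Bhlhe41, a clock-controlled E-box repressor that also inhibits MYOD, read 8.52 and 7.92 in the knockout arrays, against 7.47 and 7.12 in the heterozygous arrays. It rose by 0.93 (SE 0.20, limma adjusted p = 0.046), a call that ended without a filter (0.10), without a trend (0.065), with a robust prior (0.063), and without knockout array 1, where the difference was 0.60 (0.32), or heterozygous array 2 (0.10). The E protein gene Tcf3 (0.25), the dominant-negative partner Id3 (0.24) and Twist1 (-0.25), an inhibitor of MYOD, did not pass. Twist1 was at -0.06 without knockout array 2 and -0.44 without knockout array 1, Id3 at 0.13 without knockout array 2, and Tcf3 at 0.15 without knockout array 1.

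Among factors upstream of or beside the bHLH genes, 7 of 11 tested were higher and 4 lower, with a median of 0.02, and 0 passed the adjusted threshold. The highest values were those of Six4 (0.54, SE 0.16), a homeobox gene, Eya1 (0.50, SE 0.12) and Eya4 (0.31, SE 0.14), coactivators of that family, and Meox1 (0.46, SE 0.15), a homeobox gene of the somite. In Eya1 both knockout arrays (7.99 and 7.90) stood above both heterozygous arrays (7.38 and 7.50), as in the other 3. Of the 11, 5 lay wholly above, against 27.8% of all tested probe sets, and 4 wholly below, against 22.1%. At an unadjusted p under 0.05 there were 3 of the 11 higher, against 11.6% of all tested probe sets, and 0 lower, against 6.38%. Without knockout array 1 Six4 was at 0.34, and without heterozygous array 1 Eya4 was at 0.14.

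Among the partners and repressors of MEF2, 3 of 8 tested were higher and 5 lower, with a median of -0.0062. Smyd1, a muscle methyltransferase that MEF2C activates in the mouse heart, read 9.57 and 9.04 in the knockout arrays, against 8.14 and 8.22 in the heterozygous arrays. It rose by 1.12 (SE 0.16, limma adjusted p = 0.012), with an adjusted p of 0.054 without knockout array 1. Hdac4, a class IIa deacetylase that represses MEF2, read 8.58 and 8.75 in the knockout arrays, against 9.36 and 9.07 in the heterozygous arrays. Both knockout arrays were lower, but the difference of -0.56 (SE 0.13) did not pass (adjusted p = 0.0665; it passed in 4 alternatives, such as the filter at the 50th percentile with 0.036), and the second Hdac4 probe set differed by -0.07. Mamstr, a MEF2 coactivator of muscle, differed by 0.25 and Cabin1, a MEF2 repressor, by -0.15, without passing. Cabin1 was at -0.026 without knockout array 2 and -0.28 without knockout array 1.

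The pathway through which myostatin acts had values on both sides of 0. Of 13 tested genes 5 were higher and 8 lower, with a median of -0.0060. In limma 0 passed the adjusted threshold, against 1.98% of all tested probe sets, and 1 higher gene, Inhba, had an unadjusted p under 0.05, against 11.6%. The difference from Mstn was not tested. The receptors Acvr2b (-0.0060), Acvr1b (-0.03) and Tgfbr1 (-0.03) and the signal transducer Smad3 (-0.0013) lay close to 0, and Acvr2a, the other type II receptor, was at 0.16. Inhba, a subunit of activin, was at 0.42 (SE 0.17, limma adjusted p = 0.24), but at 0.18 without heterozygous array 2 and 0.68 without heterozygous array 1. Among the extracellular inhibitors, Fstl3 was at -0.26 (-0.15 without heterozygous array 1) and follistatin (Fst) at 0.12. Furin, a protease that cleaves the myostatin precursor, was at 0.18, and at 0.03 without knockout array 1. Gdf11, the closest relative of Mstn, was at -0.05.

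Markers of the skin's other cells were read as a check of the tissue. Medians were 0.09 for 8 keratinocyte, 0.07 for 6 fibroblast, 0.12 for 6 adipocyte and 0.04 for 3 Schwann cell markers. In limma 0 passed in each list, against 1.98% of all tested probe sets. Lower at an unadjusted p under 0.05 was 1, the adipocyte hormone gene Lep (-0.60), against 6.38% of all tested probe sets. The Lep arrays overlapped, with 8.263 and 8.801 in the knockout arrays, against 9.461 and 8.795 in the heterozygous arrays. The summed keratinocyte signal was 44182 and 39751 in the knockout arrays, against 45360 and 36037 in the heterozygous arrays, so the defining epidermal genes were present in all 4 samples. Heterozygous array 2 was the least like the knockout arrays, with correlations of 0.966 and 0.974 over tested probe sets, while the other pairs had 0.976 to 0.988. The labels give no batch.

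**Figure D4:**
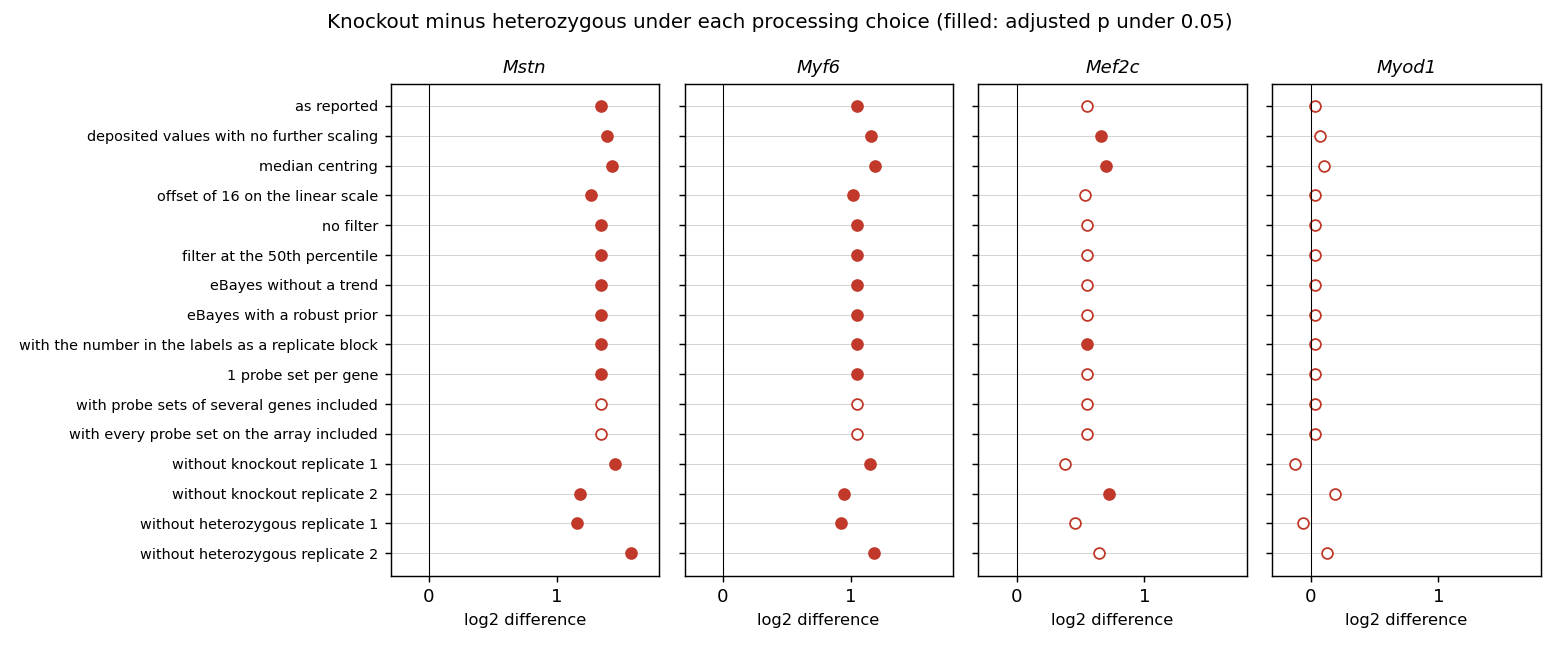
Log2 difference, knockout minus heterozygous, of Mstn, Myf6, Mef2c and Myod1 under each processing choice, with filled points where limma's adjusted p was under 0.05 and open points where it was not. Mstn and Myf6 stay to the right of 0 throughout and lose their calls in the 2 fits that include probe sets without a single gene, Mef2c is filled in 4 of 15 alternatives, and Myod1 stays near 0 with either sign.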

How the data were processed

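The authors deposited 1 table of log2 signal for 35557 probe sets on 4 arrays; Affymetrix Expression Console 1.1.1 and PLIER 2.0 are named in the submitters' processing notes. The log2 scale was read from the range (2.54 to 14.9), and no source used here gives any scaling between arrays. A probe set summarises many probes, so a change in 1 exon may go unseen. All arrays were quantile normalized. By the annotation 21789 probe sets had 1 gene, 1621 had several and 12147 had none; a GRCm38.p6 gene table gave current symbols for 21698. Tested were the 16341 probe sets of 1 gene above the 25th percentile of mean signal (6.67). Genotypes were compared with limma 3.58.1 in R 4.3.3 (trend by mean, Benjamini-Hochberg over all tested probe sets, threshold 0.05, 2 residual degrees of freedom), tested on simulated data first. SEs are moderated. The probe set with the highest mean stands for a gene. Members and lists were chosen with earlier results of these data known, and no set test was run. Named are all members, Arntl, in each pathway list up to 4 genes with the smallest p, and the 5 probe sets closest to Myod1. Myl2, Myh7, Tnnc1, Tnni1, Tnnt1, Mymk, Mymx, Mlana, Cnn1, Myh11, Cd68, Lep, Acvr2b, Acvr1b, Tgfbr1, Smad3, Fst and Gdf11 were named after their values were seen. Some listed genes are not reported here. Alternatives covered scaling, an offset of 16, filters, the variance prior, the replicate block, 1 probe set per gene and each array left out; testing wider sets of probe sets was added after the data were seen. A genotype left with 1 array took its spread from the other genotype.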

Additional observations from a re-analysis of the deposited data

How the results depend on the processing

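Mstn, Myf6, Mef2c and Arntl kept their direction in all 15 alternatives. Mstn and Myf6 passed in 13. Neither passed when probe sets of several genes were included (0 members and 0 of 17557 probe sets called) or every probe set on the array (0 members and 0 of 26667), where the adjusted p of both was 0.094 and 0.27. The prior degrees of freedom that limma estimated were 7.73 as reported and 4.12 and 2.82 in those fits. The number of probe sets called was 323 as reported, 544 with the values as deposited, 913 after median centring, 145 without a filter and 37 to 958 with 1 array left out, lowest without knockout array 1 and highest without heterozygous array 1. The number of members called was 2 to 3 with 1 array left out. Taking the label number as a replicate block gave 1235 probe sets and 3 members, Mef2c included. The labels do not say that the number pairs the mice, and deviations of same-numbered arrays correlated at 0.17. Median centring moved the median of all tested probe sets to 0.10. Signs of small differences turned as follows. With the values as deposited they were -0.052 for Pax3, 0.10 for Mef2a and 0.065 for Mef2d, and after median centring -0.016, 0.14 and 0.10. With 1 array left out the ranges were -0.12 to 0.19 for Myod1, -0.18 to 0.052 for Myog, -0.063 to 0.13 for Pax3, -0.13 to 1.2e-04 for Pax7, -0.055 to 0.046 for Mef2a, -0.18 to 0.11 for Mef2d and -0.020 to 0.30 for Fgfr4. The median of the regulators was 0.29 with the filter at the 50th percentile, which left fewer members. That of the early differentiation genes was 0.10 with that filter, 0.0054 without knockout array 2 and 0.01 without heterozygous array 2. The median of the upstream factors was -0.13 with that filter. The other medians that turned sign by more than the spread were those of the myostatin pathway (0.086 as deposited, 0.12 after median centring), the MEF2 partners (0.089 after median centring) and the melanocyte markers (0.11 and 0.15), beside those with 1 array left out. Low signal kept Myf5 from being tested.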
